A study of Mus musculus with 6 samples.

Results

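Tubulins are the proteins from which microtubules are built. Here the RNA of 10 mouse tubulin genes was described across 6 medulloblastomas: the alpha-tubulins Tuba1a and Tuba1b, the beta-tubulins Tubb2a, Tubb2b, Tubb3, Tubb4a, Tubb4b, Tubb5 and Tubb6, and the gamma-tubulin Tubg1. They were found by the gene symbol in each transcript's identifier, which gave 10 of 52550 genes and 20 of 131100 transcripts. The set was chosen because Tubb6 was higher in the mutants of these same data, so the wild-type against mutant values of all 10 members are given below as a description, with no test. All 10 passed the filter on low counts.

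Medulloblastomas are malignant brain tumours that arise in the cerebellum. Eed belongs to the Polycomb complex PRC2, which methylates histones at silenced developmental genes. RNA-seq was made from 3 tumours labelled wild type for Eed and 3 labelled Eed mutant. The sources used here do not give the allele, the tumour model, the strain or the age of the mice, and the labels do not tie each tumour to an animal of its own. The p-values below therefore speak only of the spread among these 6 samples, which may be technical. The libraries held 26186236 to 26425111 estimated counts. Eed RNA was at 30.1 to 43.8 CPM (counts scaled to a common library size) in the wild-type tumours, against 30.7 to 36.8 CPM in the mutants, and the ranges overlapped. The 8 markers of granule cell progenitors, the cells from which one class of medulloblastoma arises, were all expressed and summed to 3557, 3763 and 3665 CPM across wild-type replicates 1 to 3, against 3048, 3610 and 3030 CPM in mutant replicates 1 to 3. The largest part of the sum was Zic1, at 1471, 1832 and 1435 CPM in the wild-type tumours, against 1211, 1536 and 1304 CPM in the mutants, with overlapping groups. The groups also overlapped in the sum. Atoh1 was at 116, 75.3 and 127 CPM in the wild-type tumours, against 172.1, 171.6 and 137 CPM in the mutants. Sfrp1 was at 693, 666 and 838 CPM in the wild-type tumours, against 489, 664 and 444 CPM in the mutants. At an unadjusted p under 0.05 in edgeR 2 of the 8 markers, Atoh1 and Gli1, were higher in the mutants and 1, Sfrp1, was lower. Over all genes tested 9.29% were higher and 8.78% lower at that threshold. A code in the names of the deposited files, of a meaning that the sources used here do not give, was the same for wild-type replicate 2 and for mutant replicates 1 and 2. Wild-type replicate 3 and mutant replicate 3 had a second code in common, and wild-type replicate 1 had its own.

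A microtubule is a hollow polymer of paired alpha- and beta-tubulin, and gamma-tubulin starts its growth at centrosomes and along existing microtubules. Mammals carry several genes for alpha- and beta-tubulin, called isotypes, whose proteins differ most in the acidic tail at the end of the chain, where enzymes add glutamates and motors and other partners bind. In the developing cerebellum, dividing progenitors and maturing neurons use different mixtures of isotypes, and Tubb3 is the standard marker of young neurons.

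The coding ends of the beta-tubulins Tubb2a, Tubb2b, Tubb3, Tubb4a, Tubb4b and Tubb5 are shown because they carry the tail. The sequences are the last 63 coding bases, stop codon included, from GENCODE M21 transcripts on GRCm38, read 5′ to 3′ on the coding strand, and each lies in the last exon of its gene. In the pair Tubb2a and Tubb2b, capitals mark bases that differ from the partner. In Tubb3, Tubb4a and Tubb4b, capitals mark bases that differ from Tubb5, or are absent from it, in a global alignment of the whole coding sequences.
Tubb2a, chr13:34074468-34074530, minus strand: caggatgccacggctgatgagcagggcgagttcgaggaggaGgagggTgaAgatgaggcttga
Tubb2b, chr13:34127471-34127533, minus strand: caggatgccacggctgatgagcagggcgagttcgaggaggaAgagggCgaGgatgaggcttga
Tubb3, chr8:123421620-123421682, plus strand: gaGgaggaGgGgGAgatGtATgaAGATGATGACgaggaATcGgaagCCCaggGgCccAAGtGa
Tubb4a, chr17:57080690-57080752, minus strand: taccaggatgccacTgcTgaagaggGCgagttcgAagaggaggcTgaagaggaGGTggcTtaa
Tubb4b, chr2:25222308-25222370, minus strand: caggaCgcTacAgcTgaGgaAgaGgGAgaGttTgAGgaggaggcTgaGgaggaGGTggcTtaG
Tubb5, chr17:35834982-35835044, minus strand: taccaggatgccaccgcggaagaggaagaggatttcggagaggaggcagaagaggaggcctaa

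Tubb2a and Tubb2b differed at 3 of these 63 bases, whereas 30 bases of Tubb3 differed from Tubb5 or had no partner there. Over the whole coding sequence Tuba1a and Tuba1b were 98.3% identical, and Tubb2a and Tubb2b 96.5%. The beta-tubulin closest to Tubb6 was Tubb3, at 85.9% identity. Of all 31-base windows in its main transcript, the share found in no other M21 gene was 22.96% for Tuba1a, 24.6% for Tuba1b, 43.6% for Tubb2a, 54.1% for Tubb2b and 35.4% for Tubb4b, which shares windows with its pseudogenes. The share was 75.8% for Tubg1, 95.6% for Tubb5, 96.1% for Tubb6, 96.7% for Tubb3 and 98.1% for Tubb4a. The split of reads between Tuba1a and Tuba1b, and between Tubb2a and Tubb2b, is therefore an estimate of the quantification step, and these 4 genes and Tubb4b are uncertain. The estimated count of Tubb6 was a whole number, within 0.005, in 5 of 6 libraries.

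The levels of the 10 genes were compared in TPM, transcript abundance scaled by length and library. Tuba1a was highest, with a mean of 2861 TPM over the 6 libraries, and its coding transcript Tuba1a-201 alone had 1577 to 2331 TPM, the rest being nearly all the short noncoding Tuba1a-202 at 512 to 1716 TPM. Tubb5 followed at 1120, Tuba1b at 759 and Tubb2b at 566 TPM. Each of these exceeded the next in 6 of 6 libraries, with ranges that did not overlap. Tubb3 (mean 316 TPM), Tubb4b (210.4), Tubb2a (199.7) and Tubb4a (125) followed, and the ranges of neighbours in this stretch overlapped. Tubb3 exceeded Tubb4b in 5 of 6 libraries and Tubb4b exceeded Tubb2a in 4 of 6. Tubg1 (56.4 TPM) and Tubb6 (10.3 TPM) were lowest and did not overlap with each other or with Tubb4a.

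**Figure D1:**
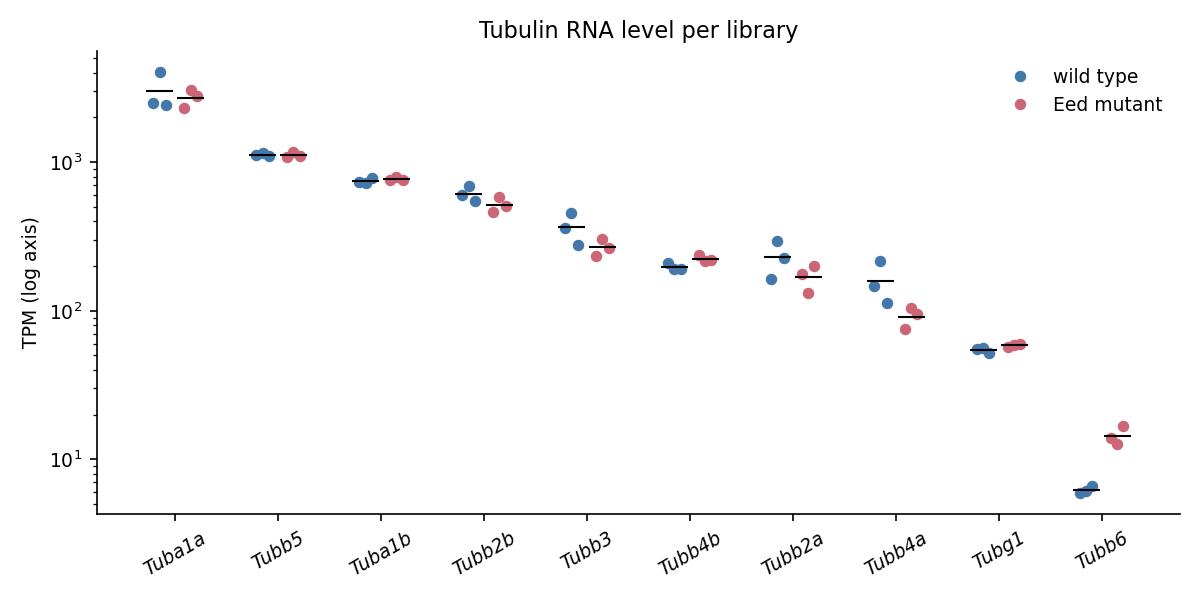
Level of each tubulin gene in TPM (log axis), with a point per library, wild type left (blue) and Eed mutant right (red), and a bar at each group mean (n = 3). Tubb6 is the lowest gene in every library, at 5.95 to 6.62 TPM in the wild-type tumours, against 12.7 to 16.7 TPM in the mutants, and the groups of Tubb4a, which do not overlap, are separated by a small gap.

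Tubb6 encodes the class V beta-tubulin, a minor isotype found at low level in many tissues and known to be raised in regenerating muscle (ENSMUSG00000001473.6 in the files; chromosome 18, 67390717 to 67402749 in M21). It had 164, 169 and 181 estimated counts across wild-type replicates 1 to 3, against 392, 353 and 467 in mutant replicates 1 to 3. Scaled to library size these were 6.19, 6.40 and 6.88 CPM in the wild-type tumours, against 15.1, 13.6 and 17.7 CPM in the mutants. All mutants lay above all wild-type tumours, and both groups were tight. The group means were 6.49 ± 0.354 and 15.4 ± 2.07 CPM (SD, n = 3), a ratio of 2.38, and the log2 fold change was 1.25 (SE 0.135). Leaving out any 1 library gave values from 1.14 to 1.33. Within the first shared file code wild-type replicate 2 had 6.40 CPM against 15.1 and 13.6 in mutant replicates 1 and 2, and within the second wild-type replicate 3 had 6.88 against 17.7 in mutant replicate 3.

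Over all 19145 genes tested, edgeR's quasi-likelihood test called 0 genes (0%) at an adjusted p of 0.05, and its smallest adjusted p was 0.0808. An unadjusted p under 0.05 was reached by 3459 genes (18.1%), 9.29% of those tested being higher and 8.78% lower in the mutants. DESeq2 called 923 of 17679 genes (5.22%), limma-voom 1 and limma-trend on log2(TPM + 1) 0. Groups did not overlap, with the mutants higher, for 13.1% of genes tested, and with the mutants lower for 11.9%. Among the members the groups did not overlap for Tubb6, Tubb4b and Tubg1, higher in the mutants, and for Tubb4a, lower in the mutants. The median log2 fold change of the 10 members was -0.08, beside -0.01 over all genes tested. Since the members were chosen from this comparison, nothing is read from these counts.

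Summed markers of some other cell types were, like Tubb6, higher in the mutants. The 10 skeletal muscle markers summed to 9.40, 8.97 and 30.3 CPM in the wild-type tumours, against 144, 73.1 and 401 CPM in the mutants, and 10 of 10 were higher at an unadjusted p under 0.05 in edgeR, with a lowest adjusted p of 0.121. Chrng, the fetal acetylcholine receptor subunit, was the single one of them at 0 in any library. The 6 pericyte and smooth muscle markers summed to 139, 156 and 172 CPM in the wild-type tumours, against 212, 195 and 229 CPM in the mutants, with 2 of 6 higher at that threshold. Most of that sum was Rgs5, at 108.5, 128.6 and 137.6 CPM in the wild-type tumours, against 173, 158 and 180 CPM in the mutants. Cnn1 went the other way, at 0.49, 0.42 and 0.61 CPM in the wild-type tumours, against 0.38, 0.35 and 0.15 CPM in the mutants, with groups that did not overlap. The 6 endothelial markers summed to 107, 123 and 141 CPM in the wild-type tumours, against 160, 153 and 162 CPM in the mutants, with 3 of 6 higher. Mutant replicate 3 was highest and mutant replicate 2 lowest of the mutants in Tubb6 and in each of these sums. The endothelial sums of mutant replicates 1 and 3, at 160 and 162 CPM, were nearly level. In the wild-type tumours Tubb6 and the pericyte and endothelial sums rose from replicate 1 to 3, but the muscle sum was lowest in replicate 2. An order of 3 libraries in each group carries little weight. The muscle sum spanned from 73.1 to 401 CPM among mutants, and Tubb6 from 13.6 to 17.7 CPM. The part of these cells in the level of Tubb6 was not tested. In bulk tumour RNA, more or fewer cells of a type cannot be told apart from more or less RNA per cell.

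**Figure D2:**
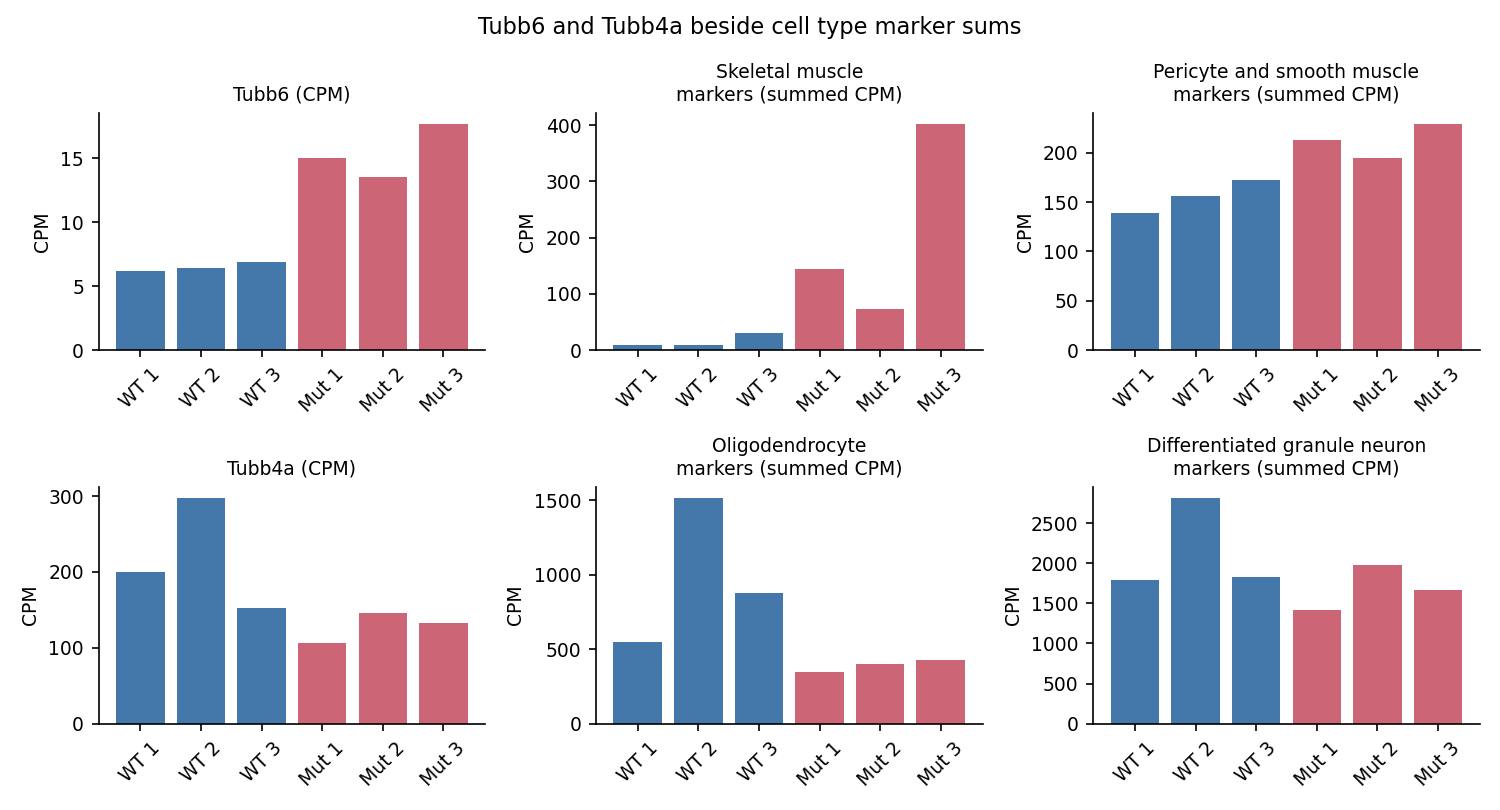
CPM of Tubb6 and Tubb4a per library (left panels), beside the summed CPM of marker lists (bars from 0; wild type blue, mutant red). Tubb6 is at 6.19 to 6.88 CPM in the wild-type tumours, against 13.6 to 17.7 CPM in the mutants while muscle markers span 73.1 to 401 CPM in the mutants, and Tubb4a and the oligodendrocyte and granule neuron sums are highest in wild-type replicate 2.

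The 5 protein-coding genes most like Tubb6, by Pearson's r of log2 CPM over the 6 libraries among 13805 genes with a mean of at least 1 CPM, were Spcs2 (r = 0.998), Sypl2 (0.996), Myl9 (0.994), Bak1 (0.993) and Kank4 (0.993). The 6 points fall into the 2 groups, so r mostly ranks how cleanly a gene separates them. Spcs2, a subunit of the signal peptidase, was at 99.1 to 100.7 CPM in the wild-type tumours, against 114, 111 and 116 CPM in the mutants. Sypl2, a muscle membrane protein of the synaptophysin family, was at 3.28, 3.22 and 3.31 CPM in the wild-type tumours, against 5.53, 5.38 and 5.97 CPM in the mutants. Myl9, a myosin light chain of smooth muscle and other non-sarcomeric cells, was at 6.08, 5.79 and 6.42 CPM in the wild-type tumours, against 8.87, 8.53 and 9.60 CPM in the mutants. The log2 fold changes of the 5 ranged from 0.19 for Spcs2 to 0.78 for Sypl2, smaller than that of Tubb6.

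Tubb4a, a brain beta-tubulin abundant in oligodendrocytes and mature neurons whose mutation causes a myelin disorder, was lower in the mutants (chromosome 17, 57080066 to 57087782). It was at 200.3, 298 and 153 CPM across wild-type replicates 1 to 3, against 107, 146 and 132 CPM in mutant replicates 1 to 3. Every mutant lay below every wild-type tumour, but the gap between wild-type replicate 3 and mutant replicate 2 was small. The means were 217 ± 73.7 and 128 ± 20.01 CPM (SD, n = 3), with a log2 fold change of -0.76 (SE 0.239). Without wild-type replicate 2 it was -0.46.

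Tubb3, the class III beta-tubulin of neurons (chromosome 8, 123411424 to 123422015), was at 407, 527 and 316 CPM in the wild-type tumours, against 274, 357 and 306 CPM in the mutants. Its groups overlapped, since mutant replicate 2 lay above wild-type replicate 3, and its log2 fold change of -0.42 (SE 0.188) became -0.21 without wild-type replicate 2. Tubb2b, needed for the migration of cortical neurons (chromosome 13, 34126748 to 34130466), was at 742, 851 and 657 CPM in the wild-type tumours, against 598, 740.1 and 636 CPM in the mutants, with a log2 fold change of -0.19 (SE 0.123). Its neighbour Tubb2a (chromosome 13, 34074274 to 34078007) was at 152, 277 and 211 CPM in the wild-type tumours, against 171, 126 and 188 CPM in the mutants, with a log2 fold change of -0.40 (SE 0.232). Both overlapped between groups. Without wild-type replicate 2 the log2 fold change was -0.17 for Tubb2a and -0.09 for Tubb2b. Tubb2a was at -0.25 without mutant replicate 2. With the reads of the pair summed before the fit, the log2 fold change was -0.23.

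Tuba1a, the main alpha-tubulin of postmitotic neurons, whose mutation causes lissencephaly (chromosome 15, 98949837 to 98953703), was at 1990, 2657 and 1866 CPM in the wild-type tumours, against 1742, 2059 and 1929 CPM in the mutants. The groups overlapped, and the log2 fold change of -0.18 (SE 0.148) was -0.01 without wild-type replicate 2. Its transcripts did not move alike. The full coding transcript Tuba1a-201 had 49120, 57810 and 44750 estimated counts in the wild-type tumours, against 39960, 44310 and 43400 in the mutants. In these counts, which are not scaled to library size, wild-type replicate 3 and mutant replicate 2 were nearly level. The split of counts between Tuba1a-201 and Tuba1a-202 is also an estimate of the quantification step. The short noncoding Tuba1a-202, of 610 bases, took 6.82%, 17.4% and 8.83% of the gene's counts in the wild-type tumours, against 12%, 17.1% and 14.9% in the mutants, with groups that overlapped. Tuba1a-202 is in the deposited files but has no entry in M21, so its position was not read. With protein-coding transcripts only, the log2 fold change of Tuba1a was -0.25.

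Wild-type replicate 2 was the highest library in Tuba1a, Tubb2a, Tubb2b, Tubb3 and Tubb4a. It was also highest in the sum of 8 markers of differentiated granule neurons, at 1788, 2816 and 1825 CPM in the wild-type tumours, against 1417, 1982 and 1663 CPM in the mutants. Groups overlapped in that sum, with mutant replicate 2 above wild-type replicates 1 and 3. Of these markers, Rbfox3 and Cbln1 had log2 fold changes of -0.009 and -0.007. The 9 oligodendrocyte markers summed to 551, 1517 and 877 CPM in the wild-type tumours, against 349, 404 and 429 CPM in the mutants. At an unadjusted p under 0.05, 4 of 8 granule neuron markers and 9 of 9 oligodendrocyte markers were lower in the mutants and none was higher. The 6 Purkinje cell markers summed to 633, 997 and 787 CPM in the wild-type tumours, against 564, 421 and 587 CPM in the mutants, with 3 of 6 lower and 0 higher. No marker of these 3 lists was at 0 in any library. The 6 fibroblast and meninges markers summed to 509 to 545 CPM in wild type and 387 to 461 CPM in the mutants, with 1 of 6, Dcn, lower. The largest part of that sum was Pdgfra, at 309, 373 and 361 CPM in the wild-type tumours, against 243, 357 and 244 CPM in the mutants. Groups overlapped for Pdgfra and for every other marker of that list except Dcn. Sums of the 8 microglia and macrophage markers (192 to 282 CPM in wild type, 171 to 216 CPM in the mutants) and of the 7 astrocyte and Bergmann glia markers (2112 to 2713 CPM, 1952 to 2446 CPM) overlapped between groups, and each list had 1 marker lower. The part of these cells in the lower values of Tubb4a and the other neuronal tubulins was not tested.

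The 5 genes most like Tubb4a, by the same rule, were Snap25 (r = 0.999), Arsa (0.998), Brsk1 (0.998), Zfhx2 (0.997) and Ids (0.996). Snap25, a SNARE protein of synaptic vesicle release, was at 266, 388 and 204 CPM in the wild-type tumours, against 135, 186 and 169 CPM in the mutants. It follows the order of Tubb4a in all 6 libraries. Brsk1, a neuronal polarity kinase that acts on microtubule-binding proteins, was at 102, 122 and 94.0 CPM in the wild-type tumours, against 80.9, 92.0 and 87.9 CPM in the mutants. The log2 fold changes of the 5 genes ranged from -0.81 for Snap25 to -0.29 for Brsk1.

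**Figure D3:**
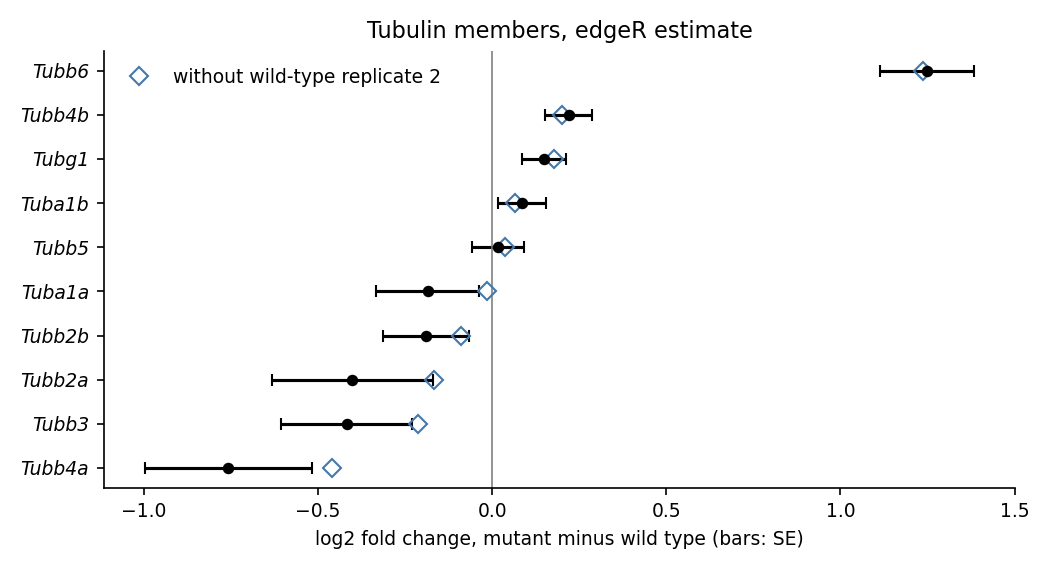
Log2 fold change of each member, mutant minus wild type, as estimated by edgeR from 3 against 3 libraries (points; bars are SE), with the estimate without wild-type replicate 2 (open diamonds). Tubb6 stays at 1.24 without that library, while Tubb4a moves from -0.76 to -0.46 and Tubb3 from -0.42 to -0.21.

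Tubb5, the most abundant beta-tubulin here and the one of neural progenitors (chromosome 17, 35833921 to 35838306), was at 1695, 1752 and 1672 CPM in the wild-type tumours, against 1685, 1817 and 1679 CPM in the mutants, with a log2 fold change of 0.02 (SE 0.076) whose sign turned without mutant replicate 2 (-0.02), with limma-trend on log2(TPM + 1) or log2(TPM + 0.1) (-0.01) and with scaling by library size alone (-0.001). Tuba1b, a broadly expressed alpha-tubulin (chromosome 15, 98931425 to 98934565), was at 739, 731 and 783 CPM in the wild-type tumours, against 794, 820 and 778 CPM in the mutants, a log2 fold change of 0.09 (SE 0.068). These groups overlapped.

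Tubb4b, a beta-tubulin of cilia and of most dividing cells (chromosome 2, 25222160 to 25224702), was at 188, 173 and 172 CPM in the wild-type tumours, against 219.8, 201.2 and 200.1 CPM in the mutants. All mutants lay above all wild-type libraries, with means of 178 ± 9.20 and 207 ± 11.05 CPM (SD, n = 3), with a log2 fold change of 0.22 (SE 0.068). Tubg1, which nucleates microtubules in the gamma-tubulin ring (chromosome 11, 101119938 to 101126419), was at 57.9, 59.9 and 54.7 CPM in the wild-type tumours, against 61.9, 64.7 and 64.6 CPM in the mutants, a log2 fold change of 0.15 (SE 0.063). Its groups also did not overlap, with 59.9 CPM the highest wild-type and 61.9 CPM the lowest mutant value. Of 10 mitosis markers, 4 were higher at an unadjusted p under 0.05 in edgeR and 0 lower, beside 9.29% and 8.78% of all genes tested. The sum of these markers was 2224, 1875 and 2460 CPM in the wild-type tumours, against 2828, 2863 and 2373 CPM in the mutants. Groups overlapped in that sum, with mutant replicate 3 below wild-type replicate 3. The part of dividing cells in the levels of Tubb4b and Tubg1 was not tested.

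The makeup of beta-tubulin RNA followed from these levels. Summed over the 8 beta-tubulin genes the level was 2609, 3005 and 2470 TPM in the wild-type tumours, against 2276, 2530 and 2392 TPM in the mutants, with overlapping groups. Tubb5 made up 42.9%, 38.2% and 44.7% of it in the wild-type tumours, against 47.3%, 46.5% and 45.7% in the mutants. Tubb4a made up 5.60%, 7.19% and 4.53% in the wild-type tumours, against 3.31%, 4.10% and 3.98% in the mutants. Tubb4b made up 8.01%, 6.36% and 7.75% in the wild-type tumours, against 10.4%, 8.58% and 9.12% in the mutants. In each of these the groups did not overlap. Tubb6 went from 0.228%, 0.203% and 0.268% in wild type to 0.615%, 0.501% and 0.698% in the mutants, so it remained under 1% of beta-tubulin RNA in every library. Because shares of a sum are tied to each other, a higher share of Tubb5 is not a higher level of Tubb5.

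**Figure D4:**
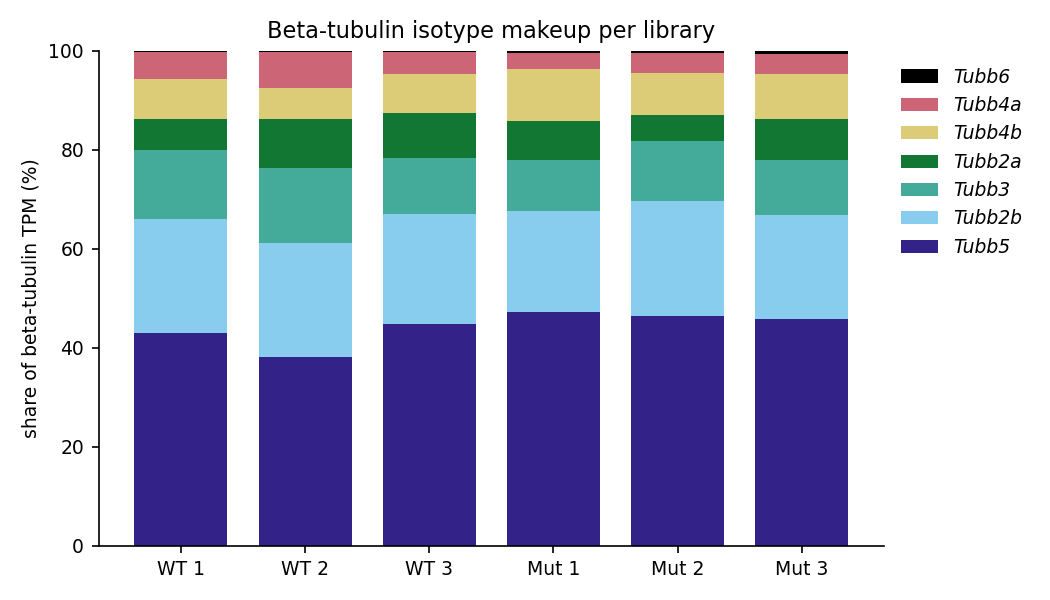
Share of the summed beta-tubulin TPM taken by each isotype in each library (stacked bars, percent; Tubb1, at or near 0, is not drawn). Tubb5 takes 38.2% to 44.7% in the wild-type tumours, against 45.7% to 47.3% in the mutants, and Tubb6 is the thin black band at the top, wider in the mutants.

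Among alpha-tubulins, Tuba1a made up 75.6%, 83.2% and 74.1% of the summed TPM in the wild-type tumours, against 73.6%, 77.7% and 76.8% in the mutants. Counting Tuba1a-201 alone in place of the gene, its share was 71.1%, 74.0% and 68.0% in the wild-type tumours, against 65.3%, 66.9% and 67.2% in the mutants. With that transcript alone the groups no longer overlapped, so the alpha-tubulin makeup depended on how the short transcript was treated.

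The other 107 genes of the tubulin and microtubule lists were not members, and 102 of them had enough counts to test. No list gene passed edgeR's test adjusted over all genes, where the lowest adjusted p in the lists was 0.134. At an unadjusted p under 0.05, 9 (8.82%) were higher and 13 (12.7%) lower in the mutants, beside 9.29% and 8.78% of all genes tested. Without wild-type replicate 2 these counts were 5 and 7, and without mutant replicate 1 they were 4 and 3. The count over all genes also fell in these fits, from 3459 of 19145 to 2815 of 19636 and 1843 of 19633. Their median log2 fold change was -0.02, beside -0.01 over all genes tested.

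Of the other tubulin genes 6 of 10 had enough counts, and Tubb1, Tuba3a, Tuba3b and Tubal3 did not. Tuba1c, an alpha-tubulin close in sequence to Tuba1a and Tuba1b, was at 52.9, 58.9 and 62.0 CPM in the wild-type tumours, against 76.4, 79.98 and 73.7 CPM in the mutants, with a log2 fold change of 0.41 (SE 0.077, unadjusted p = 0.00115 and adjusted p = 0.134 in edgeR). Its 3 mutant values all exceeded its wild-type values, and it had the lowest p of the lists, and its reads are shared with Tuba1a and Tuba1b. Tuba4a, an alpha-tubulin of nerve and muscle made without the terminal tyrosine, was at 26.4, 46.2 and 21.7 CPM in the wild-type tumours, against 14.7, 18.6 and 19.3 CPM in the mutants (log2 fold change -0.84, unadjusted p = 0.0187). Tuba8, at 3.70, 7.65 and 3.92 CPM in the wild-type tumours, against 2.61, 2.42 and 3.63 CPM in the mutants, had a log2 fold change of -0.82 (unadjusted p = 0.0408). Without wild-type replicate 2 the log2 fold change was -0.46 for Tuba4a and -0.40 for Tuba8. Without mutant replicate 1 neither Tuba4a nor Tuba8 kept an unadjusted p under 0.05, and Tuba8 also lost it without wild-type replicate 2 or mutant replicate 2.

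All 18 genes of the gamma-tubulin ring and of augmin, the complex that branches microtubules in the spindle, were tested, with a median log2 fold change of 0.08. Of these, 4 were higher and 0 lower at an unadjusted p under 0.05. Mzt1, a small subunit that helps to place the ring, was at 73.5, 80.8 and 78.2 CPM in the wild-type tumours, against 96.3, 94.0 and 90.9 CPM in the mutants (log2 fold change 0.27, unadjusted p = 0.00275). Haus7, an augmin subunit, was at 9.40, 8.71 and 10.8 CPM in the wild-type tumours, against 14.2, 13.1 and 12.5 CPM in the mutants (log2 fold change 0.46, unadjusted p = 0.00747). Tubgcp3, a core ring subunit, and Haus3 were the other such genes, at log2 fold changes of 0.20 and 0.24. Haus3 lost its p under 0.05 when wild-type replicate 1 or 2, or else replicate 1 or 2 of the mutants, was left out.

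Tubulin folding needs the ring-shaped CCT chaperonin, prefoldin and tubulin cofactors, and of these 22 genes 1 was higher and 1 lower. Ttc5, which recognises newly made tubulin chains and triggers decay of tubulin mRNA when free tubulin is in excess, was at 49.3, 44.6 and 46.5 CPM in the wild-type tumours, against 37.9, 37.5 and 41.4 CPM in the mutants (log2 fold change -0.27, unadjusted p = 0.00856). Every mutant lay below every wild-type tumour, and its unadjusted p was 0.0529 when the fit held the file code. Tbcd, a cofactor that assembles the tubulin dimer, had a log2 fold change of 0.23 (unadjusted p = 0.0366), which lost its p under 0.05 when wild-type replicate 2 or 3, or else replicate 1 or 3 of the mutants, was left out. It had a log2 fold change of 0.12 with limma-trend on log2(TPM + 1) (unadjusted p = 0.198).

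Of 18 tested genes for tubulin-modifying enzymes, 0 were higher and 2 lower. Ttll7, which adds glutamates to the tail of beta-tubulin, was at 23.4, 37.1 and 25.4 CPM in the wild-type tumours, against 22.6, 21.3 and 19.7 CPM in the mutants (log2 fold change -0.43, unadjusted p = 0.0429). Agtpbp1, which removes them and whose loss kills Purkinje cells, was at 162, 186 and 156 CPM in the wild-type tumours, against 132, 154 and 146 CPM in the mutants (log2 fold change -0.23, unadjusted p = 0.0417). Neither kept a p under 0.05 without wild-type replicate 2, mutant replicate 1 or mutant replicate 3. Ttll7 also lost it without mutant replicate 2, and Agtpbp1 without wild-type replicate 1. The log2 fold changes were -0.20 for Ttll7 and -0.14 for Agtpbp1 when wild-type replicate 2 was left out.

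Among 25 microtubule-associated and plus-end genes 1 was higher and 6 lower, with a median log2 fold change of -0.24. Tppp, a microtubule organiser of oligodendrocytes, was at 31.9, 56.1 and 33.5 CPM in the wild-type tumours, against 19, 26.7 and 22.8 CPM in the mutants (log2 fold change -0.83, unadjusted p = 0.00988), and its log2 fold change was -0.52 without wild-type replicate 2. Clasp2, which anchors growing ends, was at 303, 358 and 310.1 CPM in the wild-type tumours, against 233, 284 and 254 CPM in the mutants (log2 fold change -0.33, unadjusted p = 0.0125). Clip2, a linker of growing ends, had a log2 fold change of -0.25 and lost its p under 0.05 without mutant replicate 1. Mapre1, the end-binding protein EB1, went the other way, at 329, 320.3 and 324 CPM in the wild-type tumours, against 368, 364 and 368 CPM in the mutants (log2 fold change 0.18, unadjusted p = 0.0144). Its p was above 0.05 without mutant replicate 1, with limma-trend on log2(TPM + 1) (0.0762) and when the fit held the file code (0.0771). As described beside Tubb4a, all oligodendrocyte markers and some granule neuron and Purkinje cell markers were lower in the same mutants, in the counts given there. The granule neuron sums overlapped between groups. The part of these cells in the values of the microtubule-associated genes was not tested.

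Of 13 destabilising and severing genes 2 were higher and 2 lower. Stmn4, a neuronal stathmin that binds free tubulin, was at 104, 166 and 131 CPM in the wild-type tumours, against 68.2, 103.8 and 87.3 CPM in the mutants (log2 fold change -0.63, unadjusted p = 0.0166, lost without mutant replicate 1). Kif2c, a mitotic depolymerising kinesin, was at 77.4, 67.2 and 83.99 CPM in the wild-type tumours, against 94.5, 89.5 and 84.4 CPM in the mutants (log2 fold change 0.23, unadjusted p = 0.0415). The lowest mutant and the highest wild-type library of Kif2c were nearly level, and its p under 0.05 was lost when wild-type replicate 1 or 2, or else replicate 1 or 2 of the mutants, was left out. Without wild-type replicate 2 its log2 fold change was 0.15.

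**Figure D5:**
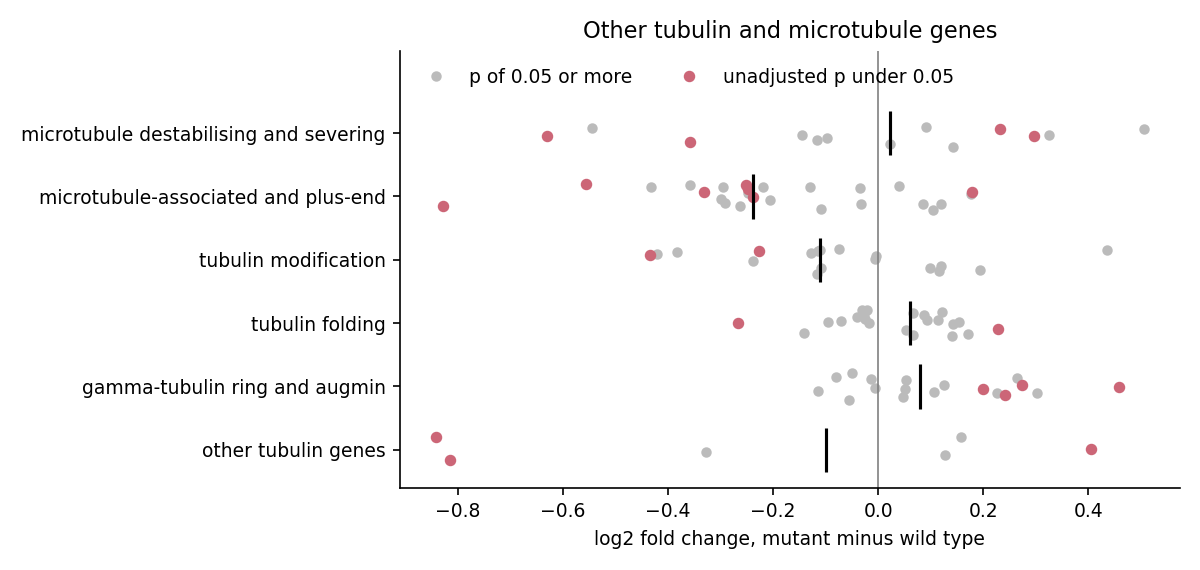
Log2 fold change, mutant minus wild type, of each tested gene in the 6 microtubule lists (points; red, unadjusted p under 0.05 in edgeR; vertical marks, list medians). Medians lie between -0.24 for microtubule-associated genes and 0.08 for the gamma-tubulin ring and augmin, and none of these genes passed at an adjusted p of 0.05.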

How the data were processed

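Per the submitters' processing notes, kallisto 0.43.1 was used with mouse assembly GRCm38, also listed as mm10. Per the file headers, the authors deposited estimated counts and TPM per transcript, 1 file per sample, with GENCODE identifiers. No source used here gives the GENCODE release or the strand setting, so overlapping genes on opposite strands cannot be separated.

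Estimated counts were summed per gene and rounded, and compared with edgeR 4.0.16 in R 4.3.3 (quasi-likelihood F-test with TMM scaling and filterByExpr defaults, p-values adjusted by Benjamini-Hochberg over 19145 genes). CPM were scaled by TMM factors. Alternatives used DESeq2 1.42.0 and limma 3.58.1. The edgeR fit was also run on simulated counts in which each gene varied independently. Genes in real tumours can move together, and no result here rests on that run. Members and lists were chosen with earlier results of these data known. Genes named from the 6 microtubule lists were up to 4 per list with an unadjusted p under 0.05, groups that did not overlap and an average of 1 CPM or more, taken by smallest p. The 11 marker lists were textbook genes, and likeness was ranked on log2 CPM with a prior count of 2. Coordinates, sequences and 31-base windows came from GENCODE M21, in which Tuba1a and Tubb6 carry later versions than in the files. The coding ends of Tuba1a and Tuba1b are not reported here.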

Additional observations from a re-analysis of the deposited data

How the results depend on the processing

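The count of genes at an adjusted p of 0.05, 0 in edgeR, was 923 with DESeq2, 1 with limma-voom, 1 with limma-trend on log2(TPM + 0.1) and 3 without a low-count filter, and 0 to 9 when leaving out each library. The count at an unadjusted p under 0.05 ranged from 1843 to 3901 when leaving out each library, lowest without mutant replicate 1. The list genes higher at that threshold numbered 5 with limma-trend on log2(TPM + 1), 5 with a pseudocount of 0.1, and 4 to 13 when leaving out each library. Those lower ranged from 3 to 16 when leaving out each library. The log2 fold change of Tubb6 was 1.09 with limma-trend on log2(TPM + 1), where the pseudocount is not small beside its level, and 1.20 with a pseudocount of 0.1. Over 18 alternatives it was 1.09 to 1.33.

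With the replicate number as a block edgeR called 273 genes. The labels do not say whether the numbers pair the samples. The deviations of same-numbered samples correlated at 0.23, 0.06 and -0.14, and 3 of 6 libraries correlated best with their own number. With 3 libraries in each group these values cannot settle it, and the main fit held no block. With the file code as a term Tubb6 was at 1.25 and Tubb4a at -0.81. Of 289 values for the 17 named list genes under the alternatives, 237 kept an unadjusted p under 0.05, 52 did not and 0 changed sign. These genes were named for such a p and for groups that did not overlap in these same libraries. The alternatives refit the same data, so the tally is not independent support for the genes. Beside the losses on leaving out a library, a p under 0.05 was lost by Tuba8, Ttll7, Tbcd, Mapre1 and Kif2c with limma-trend at both pseudocounts, by Tuba8 and Ttll7 with limma-voom, by Tbcd and Ttll7 with the effective length offset, by Tbcd and Kif2c with scaling by library size alone, by Agtpbp1 with DESeq2, by Haus3 and Tuba8 with the replicate block, and by Agtpbp1, Clip2, Haus3, Kif2c, Mapre1 and Ttc5 with the file code as a term. The groups hold 3 libraries each, which limits the precision of every fold change.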
